A study of Mus musculus with 12 samples.

Results

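The genes described here are 38 genes of the ATF4 program: transcription factors and effectors of the integrated stress response, enzymes that make amino acids, amino acid transporters, cytosolic aminoacyl-tRNA synthetases and the tRNA exporter Xpot. They were listed by name, and all 38 were found by symbol among the 32688 genes of the count table. RNA sequencing measured them in RAW264.7, a mouse macrophage cell line, in 4 groups of 3 libraries. Null cells are the control genotype, and the TFEB/TFE3 DKO cells lost both genes by CRISPR-Cas9 editing. Each line was grown in high-glucose DMEM with serum and was either left as control or given 100 µM etoposide, a topoisomerase II poison that breaks DNA, for 8 h. The comparisons ask how these genes respond to DNA damage and whether the response differs when both transcription factors are missing. Each genotype was 1 line, so genotype and line cannot be told apart. The labels do not say whether the libraries of a group came from separate cultures. The study calls its treated samples independent, without saying what was separate. The p-values measure the spread between these libraries, which may be technical.

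ATF4 is the transcription factor of the integrated stress response. Kinases that sense amino acid shortage, unfolded protein, viral RNA or heme deficiency phosphorylate the translation factor eIF2, which lowers general protein synthesis while Atf4 mRNA is translated more. ATF4, often paired with a C/EBP protein, then raises genes that make, import and charge amino acids, and in macrophages the same genes feed protein, glutathione and one-carbon synthesis. TFEB and TFE3 are helix-loop-helix factors known for lysosomal and autophagy genes, and they bind E-box sequences.

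The sequences that ATF4 dimers are known to bind share the letters TGATGNAA, and the short promoter stretches below show them for members whose values the results turn on. RefSeq promoter windows on GRCm38.p6, from 250 bases before to 50 after the transcription start, were matched for 30 of the 38 genes. Capitals mark the motif, each stretch is written 5′ to 3′ on the strand that holds it, and 10 bases are shown on each side.
Asns, chr6:7693215-7693242, minus strand: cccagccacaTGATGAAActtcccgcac
Trib3, chr2:152344029-152344056, plus strand: cccgcccggcTGATGTAAacctgagcta
Chac1, chr2:119351039-119351066, minus strand: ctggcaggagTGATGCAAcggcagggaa
Nupr1, chr7:126625563-126625590, plus strand: aagccctgtcTGATGCAAtctggccctt
Slc1a4, chr11:20332700-20332727, plus strand: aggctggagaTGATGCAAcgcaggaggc
Slc7a11, chr3:50443662-50443689, minus strand: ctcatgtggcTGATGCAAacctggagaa
Slc7a11, chr3:50443643-50443670, plus strand: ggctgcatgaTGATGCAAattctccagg
Yars, chr4:129189896-129189923, plus strand: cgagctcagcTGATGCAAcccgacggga
Slc7a11 held a match on each strand, and the shown stretches overlap. On either strand, TGATGNAA was found in 12 of the 30 matched members (40%), against 4.51% of the 27025 genes with a promoter window. The other holders were Pycr1 and the synthetase genes Aars, Gars, Iars and Tars. The stricter TGATGCAA, which every TGATGNAA search also counts, was found in 9 of the 30 (30%), against 1.03% of genes. CACGTG, the core of the E-box that TFEB and TFE3 are known to bind, was found in 6 of the 30 (20%: Nupr1, Aldh18a1, Aars, Iars, Tars and Xpot), against 8.09% of genes. Both motifs lay in the windows of Nupr1, Aars, Iars and Tars, and a pair of stretches from Tars is shown as an example.
Tars, CACGTG, chr15:11399624-11399649, minus strand: cgcctgtggcCACGTGgcgcacgcgc
Tars, TGATGNAA, chr15:11399656-11399683, plus strand: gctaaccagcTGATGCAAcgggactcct
These are matches of letters, not measured binding. The members were listed as genes of the ATF4 program, so their higher TGATGNAA share describes the list and is not a test.

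The libraries held 29837255 to 61809316 counts, and 18066 genes passed the filter on low counts, all 38 members among them. Levels are given as CPM, the counts of a gene scaled to a common library total, with each total first adjusted for RNA composition by TMM. Tfeb and Tfe3 mRNA were lower in DKO than in Null libraries, with every Tfe3 value at or under 42.6 CPM in DKO and at or over 89.4 CPM in Null cells. In their titles the treated DKO libraries are also called MEFs, against RAW264.7 in all their other labels. Of 8 macrophage markers, 1 was called higher and 4 lower with etoposide in Null cells and 4 higher and 3 lower in DKO cells. Among all genes tested, 20.9% were called higher and 18.7% lower in Null cells, and 20.2% and 19.1% in DKO cells. Csf1r, Fcgr1 and Itgam are named after their values were seen. The log2 change of Csf1r was -1.19 ± 0.09 in Null and -0.60 ± 0.09 in DKO cells. That of Fcgr1 was -0.91 ± 0.08 in Null and -2.49 ± 0.08 in DKO cells. Itgam rose, by 1.26 ± 0.13 in DKO cells and from 252, 225 and 196 CPM to 468, 434 and 446 CPM in Null cells. At an even density of reads over exons, about 63% of the Itgam counts could come from Gm49368 on the same strand. The summed level of the 8 markers was 4832 to 5132 CPM in Null controls, 4313 to 4546 CPM in treated Null cells, 4193 to 4346 CPM in DKO controls and 4585 to 4775 CPM in treated DKO cells. The 8 fibroblast markers, of which 2 passed the filter on low counts, summed to at most 2.04 CPM in any library. Labels name 2 RNA kits without assigning them to libraries, so a within-kit value could not be given. The labels call control cells untreated, while the study's methods describe a vehicle.

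All 38 genes were lower after etoposide in Null cells and all 38 were lower in DKO cells. In both lines, the lowest control library of every member stood above its highest etoposide library. Before scaling, the 38 genes held 0.976% ± 0.00211 of all counts in Null controls and 0.924% ± 0.0286 in DKO controls, and 0.380% ± 0.00416 and 0.383% ± 0.00737 after etoposide (SD, n = 3). After scaling, the summed level was 9439 to 9712 CPM in the Null controls and 3659 to 3725 CPM after etoposide, a 2.6-fold difference. It was 9612 to 9696 CPM in the DKO controls and 3803 to 3871 CPM after etoposide, a 2.52-fold difference. These levels are relative to the other RNA of a library, and in bulk samples fewer cells that express a gene cannot be told apart from less of its RNA per cell.

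The fall was tested in a limma-trend fit over all 18066 genes, with Benjamini-Hochberg adjustment and a call at an adjusted p under 0.05. In Null cells 38 of 38 members were called lower, where 18.7% of all genes tested were, and in DKO cells 38 of 38, where 19.1% were. Because the members were chosen with earlier results of these data known, this comparison with all genes is a description. Across all genes, 12.9% were called lower in both lines. Groups that did not overlap, lower after etoposide, were found for 24.9% of all genes in Null and 22.2% in DKO cells. The median log2 fold change of the members was -1.43 in each line, against 0.03 over all genes tested in each line. The largest adjusted p among the members was 6.52e-04 (Slc38a2) in Null and 0.00287 (Slc7a11) in DKO cells. A log2 change of -1 or lower was measured for 34 members in Null and 31 in DKO cells. No call among the 38 was lost when any of the 12 libraries was left out.

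**Figure D1:**
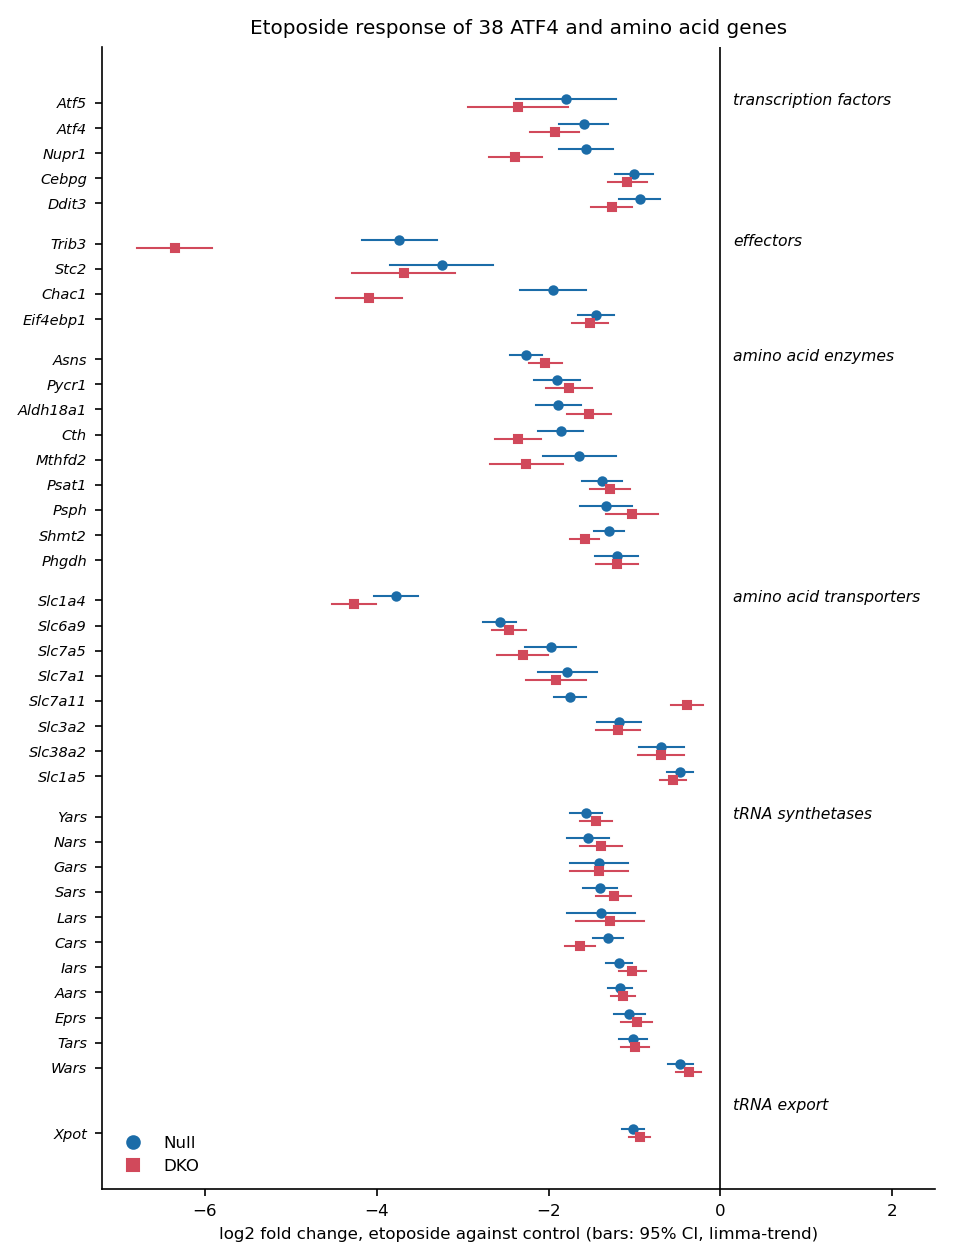
Log2 fold change of each of the 38 genes, etoposide against control, by role. Points are limma-trend estimates from 3 libraries per group in Null (circles) and DKO cells (squares), bars are 95% confidence intervals, and every interval lies below 0, from -0.37 for Wars to -6.35 for Trib3, both in DKO cells.

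Members with TGATGNAA in the promoter window had a median log2 change of -1.66 in Null and -1.61 in DKO cells (12 genes), and matched members without it -1.36 and -1.28 (18 genes). The ranges overlapped widely: holders ran from -3.78 to -1.02 in Null cells, and the others from -3.24 to -0.69. This split was not tested, and Trib3 and Slc1a4 are holders while Stc2, with a change of -3.24 in Null cells, is not.

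Among the transcription factors, Atf4 itself was measured at 705, 637 and 531 CPM in the Null controls, 213, 207 and 199 CPM in Null cells after etoposide, 541, 733 and 744 CPM in the DKO controls and 173, 162 and 191 CPM in DKO cells after etoposide. The control libraries spread more widely than the treated ones, but no treated library came near them. The log2 change of Atf4 was -1.59 ± 0.13 in Null and -1.93 ± 0.13 in DKO cells (SE; limma-trend, adjusted p = 1.32e-06 and 1.80e-07). Per kilobase of exon, Atf4 ranked 2 among the 38 genes in Null control cells at 264.9 CPM per kb, after Asns at 315 CPM per kb and ahead of Shmt2 at 257 CPM per kb.

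Atf5, a relative of Atf4 that is also translated under stress, stood at 95.1, 60.6 and 46.3 CPM in the Null controls, 17.2, 19.0 and 19.3 CPM in Null cells after etoposide, 63.2, 103 and 128 CPM in the DKO controls and 20.4, 14.9 and 20.2 CPM in DKO cells after etoposide. Its control values differed more between replicates than those of any other member in Null controls, and its log2 change was still -1.80 ± 0.27 in Null and -2.36 ± 0.27 in DKO cells. Cebpg, which encodes a C/EBP partner of ATF4, was measured at 72.2, 69.5 and 64.2 CPM in the Null controls, 35.8, 33.0 and 33.7 CPM in Null cells after etoposide, 71.7, 89.8 and 89.9 CPM in the DKO controls and 37.2, 36.9 and 44.2 CPM in DKO cells after etoposide. Ddit3, which encodes CHOP and is a marker of prolonged integrated stress signalling, was measured at 22.4, 20.1 and 17.6 CPM in the Null controls, 11.5, 10.4 and 9.28 CPM in Null cells after etoposide, 19.2, 20.3 and 20.9 CPM in the DKO controls and 7.80, 8.36 and 8.96 CPM in DKO cells after etoposide. Cebpg and Ddit3 had the smallest falls of the 5 transcription factors in both lines, with log2 changes of -1.0 ± 0.10 in Null and -1.08 ± 0.10 in DKO cells for Cebpg and -0.94 ± 0.11 in Null and -1.26 ± 0.11 in DKO cells for Ddit3. The counts were made without strand, and Ddit3 shares exon sequence with Mars on the opposite strand. At an even density of reads over the Mars exons, about 17.8% of the Ddit3 counts could come from Mars.

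Nupr1, a small chromatin protein induced by stress, was measured at 122, 102 and 90.1 CPM in the Null controls, 35.7, 34.9 and 34.7 CPM in Null cells after etoposide, 83.1, 112 and 114 CPM in the DKO controls and 18.4, 17.7 and 22.8 CPM in DKO cells after etoposide. The control groups of both lines overlapped, while all 3 DKO etoposide libraries lay below all 3 Null etoposide libraries. The log2 change was -1.56 ± 0.14 in Null and -2.39 ± 0.14 in DKO cells.

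The effectors held several of the largest falls. Trib3, a pseudokinase that ATF4 induces and that dampens AKT and ATF4 itself, was measured at 21.1, 23.6 and 19.7 CPM in the Null controls, 1.21, 1.82 and 1.70 CPM in Null cells after etoposide, 26.8, 30.2 and 28.7 CPM in the DKO controls and 0.363, 0.192 and 0.345 CPM in DKO cells after etoposide. The last 3 values rest on 20, 11 and 21 counts. The ratio of the control mean to the etoposide mean was 13.6 in Null and 95.1 in DKO cells, and the fitted log2 changes were -3.73 ± 0.20 in Null and -6.35 ± 0.20 in DKO cells. In DKO cells Trib3 had the lowest log2 change of all 18066 genes, and in Null cells it ranked 3 from the lowest, 1 place behind Slc1a4.

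Chac1, an enzyme that breaks down glutathione, stood at 12.3, 13.7 and 15.2 CPM in the Null controls, 3.31, 3.67 and 3.55 CPM in Null cells after etoposide, 18.2, 15.2 and 10.3 CPM in the DKO controls and 0.818, 0.787 and 0.723 CPM in DKO cells after etoposide. It lost about as much as many other members in Null cells and far more in DKO cells, with log2 changes of -1.95 ± 0.18 in Null and -4.09 ± 0.18 in DKO cells. Stc2, which encodes the secreted glycoprotein stanniocalcin 2, stood at 53.8, 40.1 and 28.9 CPM in the Null controls, 5.23, 3.50 and 3.88 CPM in Null cells after etoposide, 14.0, 25.0 and 28.3 CPM in the DKO controls and 1.80, 1.35 and 1.74 CPM in DKO cells after etoposide. Its Null and DKO control groups did not overlap and neither did its etoposide groups, with DKO lower in each, and its log2 change with etoposide was -3.24 ± 0.28 in Null and -3.68 ± 0.28 in DKO cells. Eif4ebp1, which encodes an inhibitor of cap-dependent translation, went from 98.8, 115 and 112 CPM to 39.0, 40.9 and 38.6 CPM in Null cells and from 141, 119 and 115 CPM to 46.8, 44.3 and 39.0 CPM in DKO cells. Its change was nearly equal in both lines, at -1.45 ± 0.10 in Null and -1.52 ± 0.10 in DKO cells on the log2 scale.

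**Figure D2:**
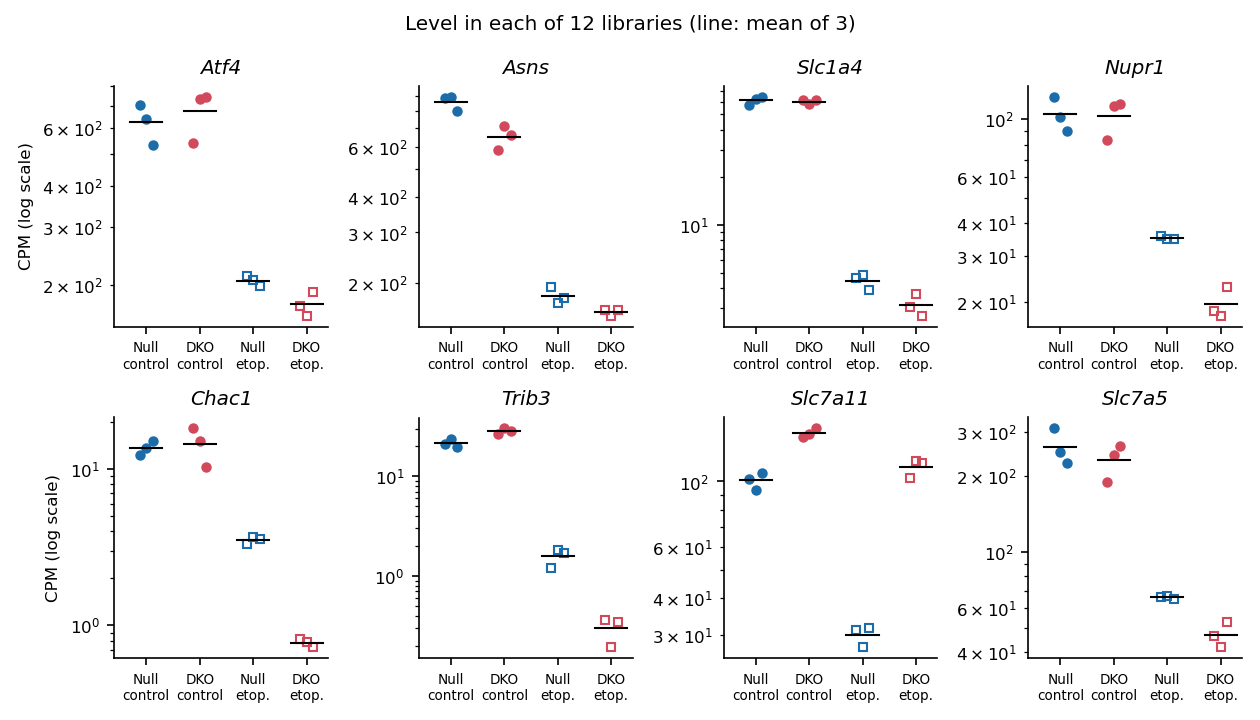
Level in each library, in CPM on a log axis, for 8 members. Filled circles are control and open squares etoposide libraries, blue is Null and red DKO, and lines are means of 3. All treated values lie below the control values of their own line, and DKO etoposide libraries lie below Null etoposide libraries for Nupr1, Chac1 and Trib3 but above them for Slc7a11.

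All 9 enzymes of amino acid synthesis fell, and their summed level was 3.05 times lower after etoposide in Null and 3.02 times lower in DKO cells. Asns, which makes asparagine, stood at 887, 896 and 803 CPM in the Null controls, 193, 169.7 and 177 CPM in Null cells after etoposide, 583, 707 and 661 CPM in the DKO controls and 161, 153 and 161 CPM in DKO cells after etoposide. It had the largest fall of the 9 in Null cells, with a log2 change of -2.26 ± 0.09 in Null and -2.04 ± 0.09 in DKO cells, and its DKO controls lay below its Null controls.

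Serine is made from a glycolytic intermediate by Phgdh, Psat1 and Psph in turn. Phgdh was measured at 218, 255 and 250.3 CPM in the Null controls, 99.8, 109.9 and 102 CPM in Null cells after etoposide, 241, 198 and 172 CPM in the DKO controls and 89.8, 92.6 and 80.5 CPM in DKO cells after etoposide. Psat1 was measured at 465, 579.5 and 618 CPM in the Null controls, 208, 215 and 211 CPM in Null cells after etoposide, 580.3, 506 and 471 CPM in the DKO controls and 209, 225 and 202 CPM in DKO cells after etoposide. Psph was measured at 79.1, 96.2 and 109 CPM in the Null controls, 36.0, 38.6 and 37.1 CPM in Null cells after etoposide, 124, 88.0 and 89.7 CPM in the DKO controls and 48.0, 52.5 and 45.5 CPM in DKO cells after etoposide. The 3 enzymes fell by similar amounts, with log2 changes between -1.38 and -1.21 in Null and between -1.29 and -1.03 in DKO cells. Psph shares exon sequence with Cct6a on the opposite strand. At an even read density Cct6a could give about 68.6% of the Psph counts, so the values of Psph are uncertain.

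Shmt2 and Mthfd2 carry the serine-derived one-carbon unit through the mitochondrial folate pathway. Shmt2 was measured at 871, 799 and 730.1 CPM in the Null controls, 316, 336 and 323 CPM in Null cells after etoposide, 735, 815 and 821 CPM in the DKO controls and 271, 257 and 264 CPM in DKO cells after etoposide. Mthfd2 was measured at 118, 139 and 177 CPM in the Null controls, 45.6, 47.0 and 44.5 CPM in Null cells after etoposide, 193, 119.7 and 111 CPM in the DKO controls and 27.6, 33.5 and 25.3 CPM in DKO cells after etoposide. Mthfd2 spread widely among controls, yet its DKO etoposide libraries were the lowest of all 12, and its log2 changes were -1.64 ± 0.19 in Null and -2.26 ± 0.19 in DKO cells. Those of Shmt2 were -1.30 ± 0.08 in Null and -1.58 ± 0.08 in DKO cells.

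Aldh18a1 and Pycr1 act at the start and end of proline synthesis. Aldh18a1 was measured at 296, 263 and 236 CPM in the Null controls, 70.7, 72.0 and 71.2 CPM in Null cells after etoposide, 209, 272 and 279 CPM in the DKO controls and 86.4, 79.0 and 96.5 CPM in DKO cells after etoposide. Pycr1 was measured at 18.6, 18.5 and 20.1 CPM in the Null controls, 4.25, 5.61 and 5.46 CPM in Null cells after etoposide, 21.8, 20.4 and 19.8 CPM in the DKO controls and 6.91, 5.86 and 5.46 CPM in DKO cells after etoposide, and per kilobase it was the least abundant of the 38 genes in Null controls (4.85 CPM per kb). Both fell to less in Null than in DKO cells on average, with log2 changes of -1.89 ± 0.12 in Null and -1.53 ± 0.12 in DKO cells for Aldh18a1 and -1.90 ± 0.12 in Null and -1.76 ± 0.12 in DKO cells for Pycr1. Cth, which releases cysteine from cystathionine, was measured at 24.9, 28.4 and 26.3 CPM in the Null controls, 7.64, 7.03 and 7.14 CPM in Null cells after etoposide, 29.2, 26.8 and 26.8 CPM in the DKO controls and 5.71, 6.17 and 4.31 CPM in DKO cells after etoposide, and its lowest values were those of DKO cells after etoposide, a log2 change of -1.86 ± 0.12 in Null and -2.36 ± 0.12 in DKO cells.

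The 8 transporters had the widest range of log2 changes of any role in Null cells, while in DKO cells the effectors ranged more widely. Slc1a4, which exchanges alanine, serine and cysteine, was measured at 57.3, 62.6 and 64.5 CPM in the Null controls, 4.59, 4.83 and 3.90 CPM in Null cells after etoposide, 61.3, 58.0 and 61.5 CPM in the DKO controls and 3.02, 3.64 and 2.66 CPM in DKO cells after etoposide. Both control groups lay within a narrow range, and the treated libraries of both lines were more than 10-fold lower: the ratio of means was 13.8 in Null and 19.4 in DKO cells. Its relative Slc1a5, the main glutamine exchanger, went from 228, 248 and 232 CPM to 168, 174 and 169.7 CPM in Null cells and from 279.9, 288 and 260.0 CPM to 201, 187 and 178 CPM in DKO cells. That made it one of the least changed members, with log2 changes of -0.47 ± 0.07 in Null and -0.55 ± 0.07 in DKO cells.

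Slc6a9, a glycine transporter, was measured at 46.6, 43.9 and 40.0 CPM in the Null controls, 7.27, 6.89 and 7.70 CPM in Null cells after etoposide, 45.5, 51.0 and 49.8 CPM in the DKO controls and 9.36, 8.22 and 8.88 CPM in DKO cells after etoposide. Its log2 change was -2.57 ± 0.09 in Null and -2.46 ± 0.09 in DKO cells. At an even read density, about 15.4% and 15.3% of its counts could come from Ccdc24 and Gm17114 on the opposite strand. Slc7a1, which imports arginine and lysine, was measured at 301, 246 and 207 CPM in the Null controls, 70.6, 74.3 and 72.0 CPM in Null cells after etoposide, 215, 289 and 311 CPM in the DKO controls and 71.5, 60.7 and 82.7 CPM in DKO cells after etoposide. The treated groups of the 2 lines overlapped, and the log2 change was -1.78 ± 0.16 in Null and -1.92 ± 0.16 in DKO cells.

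Slc7a5 imports large neutral amino acids as a dimer with the product of Slc3a2. Slc7a5 was measured at 310.2, 251 and 225 CPM in the Null controls, 66.0, 67.1 and 65.2 CPM in Null cells after etoposide, 190.1, 242 and 264 CPM in the DKO controls and 46.3, 41.8 and 52.5 CPM in DKO cells after etoposide. Slc3a2 was measured at 161, 183 and 205 CPM in the Null controls, 77.1, 84.9 and 78.9 CPM in Null cells after etoposide, 192, 153 and 144 CPM in the DKO controls and 74.0, 74.1 and 65.0 CPM in DKO cells after etoposide. The partner genes did not fall by the same amount: the log2 change was -1.98 ± 0.14 in Null and -2.30 ± 0.14 in DKO cells for Slc7a5 and -1.18 ± 0.12 in Null and -1.19 ± 0.12 in DKO cells for Slc3a2. Slc38a2, a sodium-coupled importer of small neutral amino acids, went from 267, 319 and 358 CPM to 199.5, 194 and 189 CPM in Null cells and from 394, 302 and 299.7 CPM to 203, 218 and 192 CPM in DKO cells, with log2 changes of -0.69 ± 0.12 in Null and -0.69 ± 0.12 in DKO cells.

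Slc7a11 imports cystine in exchange for glutamate as another partner of Slc3a2, and supplies cysteine for glutathione. It was measured at 102, 93.7 and 107 CPM in the Null controls, 31.2, 27.2 and 31.8 CPM in Null cells after etoposide, 141, 146 and 152 CPM in the DKO controls and 102, 118 and 116 CPM in DKO cells after etoposide. It was the one member whose treated DKO libraries reached the range of the Null controls, and the 2 treated groups lay far apart. The log2 change was -1.75 ± 0.08 in Null and -0.39 ± 0.08 in DKO cells. Per kilobase it ranked 37 of 38 in Null controls and 26 of 38 in DKO cells after etoposide.

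The 11 cytosolic synthetases, which load tRNAs with their amino acids, fell together. Their summed level was 3461 to 4047 CPM in the Null controls, 1564 to 1581 CPM in Null cells after etoposide, 3723 to 4119 CPM in the DKO controls and 1697 to 1776 CPM in DKO cells after etoposide, 2.39-fold and 2.24-fold lower. For 10 of the 11 the log2 change lay between -1.57 (Yars, tyrosine) and -1.02 (Tars, threonine) in Null cells, and between -1.64 (Cars, cysteine) and -0.97 (Eprs, glutamate and proline) in DKO cells. Wars, the tryptophan enzyme that interferon-gamma also induces, was the exception.

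Yars was measured at 138, 149.9 and 148 CPM in the Null controls, 49.1, 50.2 and 47.4 CPM in Null cells after etoposide, 147, 135 and 119 CPM in the DKO controls and 49.8, 51.9 and 44.9 CPM in DKO cells after etoposide. Nars, for asparagine, was measured at 448, 539 and 605 CPM in the Null controls, 185, 179 and 181 CPM in Null cells after etoposide, 609, 504 and 492 CPM in the DKO controls and 207, 214 and 189 CPM in DKO cells after etoposide. The treated groups of the lines overlapped for Yars, with log2 changes of -1.57 ± 0.09 in Null and -1.45 ± 0.09 in DKO cells for Yars and -1.54 ± 0.11 in Null and -1.39 ± 0.11 in DKO cells for Nars. Gars, for glycine, was measured at 291, 376 and 436 CPM in the Null controls, 135, 139.8 and 133 CPM in Null cells after etoposide, 422, 322 and 285 CPM in the DKO controls and 124, 139 and 118 CPM in DKO cells after etoposide. Lars, for leucine, was measured at 203, 262 and 317 CPM in the Null controls, 98.6, 96.4 and 97.9 CPM in Null cells after etoposide, 354, 242 and 215 CPM in the DKO controls and 111, 120.4 and 96.5 CPM in DKO cells after etoposide. These 2 genes had the widest spread of the 11 among the controls and in treated DKO cells (coefficient of variation 8.51% for Gars and 11% for Lars), and were tightly grouped in treated Null cells (2.60% and 1.13%). The log2 changes were -1.42 ± 0.15 in Null and -1.42 ± 0.15 in DKO cells for Gars and -1.39 ± 0.18 in Null and -1.28 ± 0.18 in DKO cells for Lars.

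Sars, for serine, was measured at 592, 546 and 518 CPM in the Null controls, 209.6, 212 and 204 CPM in Null cells after etoposide, 485, 566 and 617 CPM in the DKO controls and 229, 222 and 251 CPM in DKO cells after etoposide. Cars was measured at 138, 149.8 and 162 CPM in the Null controls, 59.1, 60.5 and 61.4 CPM in Null cells after etoposide, 164, 141 and 140.5 CPM in the DKO controls and 48.3, 48.4 and 45.9 CPM in DKO cells after etoposide. The treated DKO libraries of Cars lay below those of Null cells, and those of Sars lay above them. Iars, for isoleucine, was measured at 374, 379.8 and 396 CPM in the Null controls, 164, 168 and 175 CPM in Null cells after etoposide, 394, 379 and 444 CPM in the DKO controls and 195, 202 and 199 CPM in DKO cells after etoposide. Aars, for alanine, was measured at 364, 401 and 393 CPM in the Null controls, 173, 172 and 171 CPM in Null cells after etoposide, 394, 382 and 366 CPM in the DKO controls and 175, 178 and 166 CPM in DKO cells after etoposide. The treated groups overlapped for Aars and not for Iars, which was higher in DKO cells. At an even read density, about 11% of the Aars counts could come from Exosc6. Eprs was measured at 554, 577 and 673 CPM in the Null controls, 296, 283 and 283 CPM in Null cells after etoposide, 752, 669 and 710.3 CPM in the DKO controls and 345, 374 and 366 CPM in DKO cells after etoposide. Tars was measured at 246, 269.9 and 289 CPM in the Null controls, 136, 131 and 130.2 CPM in Null cells after etoposide, 299, 274 and 270.0 CPM in the DKO controls and 140.2, 146 and 136 CPM in DKO cells after etoposide. Their falls were among the smaller ones of the 11, at -1.06 ± 0.08 in Null and -0.97 ± 0.08 in DKO cells for Eprs and -1.02 ± 0.07 in Null and -1.0 ± 0.07 in DKO cells for Tars on the log2 scale.

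Wars went from 113, 108 and 109 CPM to 76.1, 82.8 and 79.8 CPM in Null cells and from 97.2, 108 and 108 CPM to 78.3, 79.8 and 83.8 CPM in DKO cells, a log2 change of -0.47 ± 0.07 in Null and -0.37 ± 0.07 in DKO cells. Xpot, the exporter that carries tRNA out of the nucleus, was measured at 324, 321 and 331 CPM in the Null controls, 164, 163 and 154 CPM in Null cells after etoposide, 364, 372 and 373 CPM in the DKO controls and 188, 194 and 195 CPM in DKO cells after etoposide. Its control libraries were the most even of all members in Null cells, and its log2 change was -1.02 ± 0.06 in Null and -0.94 ± 0.06 in DKO cells.

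The other synthetase genes included higher and lower ones, and the members were listed with results of these data known, so the split between the lists is a description. Of 12 further genes for cytosolic synthetases and the scaffold proteins of their complex, 1 was called higher and 3 lower in Null cells, and 2 higher and 3 lower in DKO cells, with medians of 0.0 and 0.01 on the log2 scale. The 9 of them that encode synthetases, without the scaffold proteins, had medians of -0.26 in Null and -0.15 in DKO cells and the same numbers of calls. Over all genes tested, 20.9% were called higher in Null and 20.2% in DKO cells. The 3 that fell were Mars (methionine), with -0.85 ± 0.13 in Null and -0.79 ± 0.13 in DKO cells, Farsb (phenylalanine), with -0.75 ± 0.08 in Null and -0.28 ± 0.08 in DKO cells, and Vars (valine, named after its values were seen), with -0.34 ± 0.08 in Null and -0.72 ± 0.08 in DKO cells. Farsa, the other phenylalanine subunit, was called higher in DKO cells (0.44 ± 0.15, adjusted p = 0.0335). Of 17 mitochondrial synthetase genes, 2 were called higher and 2 lower in Null cells, and 2 higher and 3 lower in DKO cells, with medians of -0.11 and -0.04. Fars2 had log2 changes of -1.23 ± 0.09 in Null and -0.76 ± 0.09 in DKO cells. Lars2 was called higher in Null cells (1.39 ± 0.38), but its 3 treated libraries were at 86.4, 23.8 and 25.7 CPM, and replicate 1 stood apart.

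**Figure D3:**
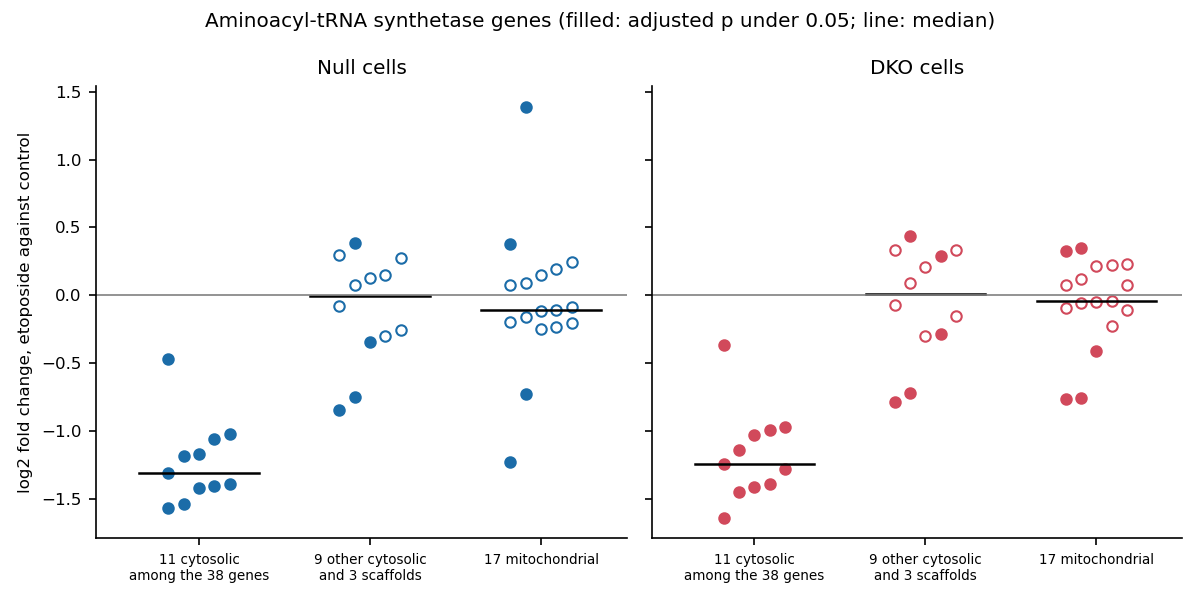
Log2 fold change with etoposide for the 11 cytosolic members, 12 further genes for cytosolic synthetases and scaffold proteins, and 17 mitochondrial synthetase genes in Null (left) and DKO cells (right). Each circle is a gene, filled where its adjusted p was under 0.05, and lines are medians, at -1.31 and -1.24 for the members, 0.0 and 0.01 for the 12 further genes (-0.26 and -0.15 without the scaffold proteins) and -0.11 and -0.04 for the mitochondrial genes.

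Genes upstream of ATF4 showed no common direction. Of 14 genes for eIF2 kinases, phosphatase subunits, eIF2B and their regulators, 4 were called higher and 1 lower in Null cells. In DKO cells 4 were called higher and 2 lower, and the medians were 0.11 in Null and 0.14 in DKO cells on the log2 scale. The shares of all genes tested were 20.9% higher and 18.7% lower in Null cells, and 20.2% and 19.1% in DKO cells. Ppp1r15a, whose product GADD34 removes the phosphate from eIF2, rose by 0.76 ± 0.07 in Null cells, from 15.8, 16.2 and 17.3 CPM to 27.4, 28.8 and 27.6 CPM. In DKO cells the change was 0.12 ± 0.07 and was not called, and the interaction was -0.64 ± 0.11 (adjusted p = 0.00187). Its constitutive relative Ppp1r15b had log2 changes of -0.54 ± 0.11 in Null and -0.54 ± 0.11 in DKO cells. Impact, an inhibitor of GCN2 activation, rose by 0.63 in Null and 1.09 in DKO cells (interaction 0.47 ± 0.10, adjusted p = 0.00994). mRNA levels do not show whether eIF2 was phosphorylated.

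Further known ATF4 targets moved both ways. Of 14 tested out of 17 listed, 4 were called higher and 8 lower in Null cells, and 4 higher and 7 lower in DKO cells. Their medians were -0.98 in Null and -0.36 in DKO cells on the log2 scale. Among all genes tested, 20.9% were called higher and 18.7% lower in Null cells, and 20.2% and 19.1% in DKO cells. Pck2, the mitochondrial PEP carboxykinase, stood at 114, 132 and 130.4 CPM in Null controls and 17.9, 18.6 and 18.2 CPM after etoposide, with log2 changes of -2.78 ± 0.12 in Null and -3.06 ± 0.12 in DKO cells. Gpt2, an alanine aminotransferase, stood at 113, 119 and 119 CPM and 19.4, 20.2 and 20.9 CPM, with -2.54 ± 0.06 in Null and -2.20 ± 0.06 in DKO cells. Ddit4, an inhibitor of mTORC1, rose instead, from 1.30, 2.46 and 3.67 CPM to 24.6, 26.0 and 25.7 CPM in Null cells, with log2 changes of 3.45 ± 0.38 in Null and 2.30 ± 0.38 in DKO cells. Tnfrsf10b, a death receptor, rose by 2.33 in Null and 1.83 in DKO cells. Its Null controls were low, at 0.389, 0.747 and 0.289 CPM, against 3.27, 3.88 and 3.42 CPM in DKO controls. Ddit4 and Tnfrsf10b are also known p53 targets.

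For most members no difference between the responses of the lines was called. Over the 38 genes the etoposide log2 changes of the lines, which share no library, had a Pearson r of 0.87 and a Spearman rho of 0.85, a description across genes that are not independent. The fall was larger in DKO cells for 19 members and smaller for 19, counted without regard to the test. The interaction of genotype and etoposide, which tests the difference between the 2 responses, was called for 4 members: 1 higher and 3 lower, where 3.07% of all genes tested were called higher and 6.39% lower.

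**Figure D4:**
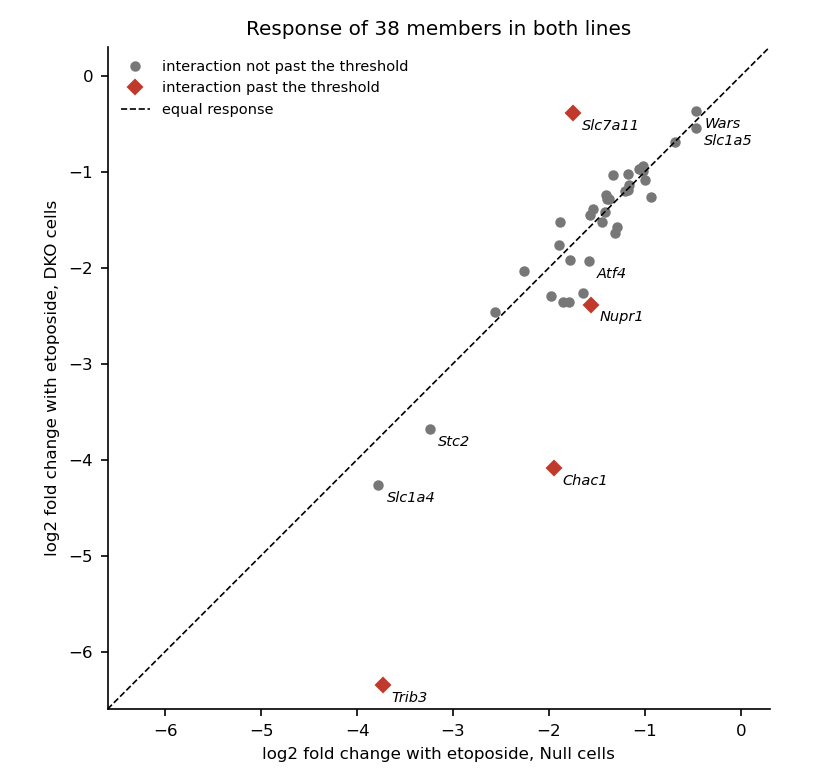
Log2 fold change with etoposide in Null (x axis) against DKO cells (y axis), 1 point per gene for 38 genes. Red diamonds are the 4 genes whose interaction passed an adjusted p of 0.05: Slc7a11 lies above the dashed line of equal response, and Trib3, Chac1 and Nupr1 lie below it.

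Slc7a11 fell less in DKO than in Null cells, by a difference of 1.36 ± 0.12 on the log2 scale (limma-trend, adjusted p = 9.56e-06, 95% interval 1.10 to 1.62). Trib3 fell more in DKO cells, and its interaction was -2.62 ± 0.28 (adjusted p = 6.56e-05, -3.24 to -2.0). So did Chac1, at -2.15 ± 0.25 (adjusted p = 1.18e-04, -2.69 to -1.60). These 3 calls held when each of the 12 libraries was left out. Nupr1 was called at -0.82 ± 0.20 (adjusted p = 0.0212), but the call was lost when any 1 of 8 libraries was left out, with adjusted p-values of 0.0517 to 0.0734 for Null control replicate 2, DKO control replicates 2 and 3, all 3 Null etoposide replicates and DKO etoposide replicates 1 and 2.

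For the other 34 members no difference of response was called, and the intervals show what remains possible. For Atf4 the interaction was -0.34 with a 95% interval of -0.74 to 0.06, and for Asns 0.22 with -0.04 to 0.49. For Aars it was 0.03 with -0.17 to 0.23, and for Wars 0.10 with -0.11 to 0.30. Over the 11 synthetases the estimates ran from -0.33 (Cars) to 0.16 (Sars). Atf5 and Stc2 were less well determined, with intervals of -1.39 to 0.27 and -1.29 to 0.40. The interaction of Slc1a4 was -0.49 (adjusted p = 0.101), and it was called with DESeq2 on all 12 libraries (adjusted p = 0.0354) and when DKO etoposide replicate 2 was left out (adjusted p = 0.0375).

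In control cells, DKO cells were called higher for 3 members, Slc7a11, Slc1a5 and Xpot, where 10.9% of all genes tested were, and lower for 2, Asns and Stc2, where 8.39% were. Slc7a11 was higher by 0.53 ± 0.08 on the log2 scale (limma-trend, adjusted p = 5.32e-04) and the difference of Asns was -0.41 ± 0.09 (adjusted p = 0.00429). These 2 calls held with each library left out. The differences of Slc1a5 (0.22), Xpot (0.18) and Stc2 (-0.88) were less firm. That of Xpot was lost without any 1 of the 12 libraries (adjusted p up to 0.164), that of Slc1a5 without any 1 of 11, all but DKO control replicate 3 (up to 0.181), and that of Stc2 without any 1 of 8, all but replicate 3 of both control groups, Null etoposide replicate 1 and DKO etoposide replicate 2 (up to 0.132).

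After etoposide, DKO cells were called higher for 6 members, where 15.9% of all genes tested were, and lower for 11, where 17.8% were. Groups did not overlap for 12 members higher and 15 lower in DKO cells, against 27.5% and 28.1% of all genes. The higher members were Slc7a11 (1.90 ± 0.08, 112 ± 8.27 against 30.1 ± 2.49 CPM, SD, n = 3; limma-trend), Psph, Eprs, Slc6a9, Xpot and Iars, of which the last 5 lay between 0.23 and 0.38. The exon overlap of Psph with Cct6a makes its difference uncertain, and that of Slc6a9 is limited by overlaps with Ccdc24 and Gm17114. The lower members included all of the effectors except Eif4ebp1. Chac1 was -2.10 ± 0.18 (0.776 ± 0.0481 against 3.51 ± 0.184 CPM, SD, n = 3; limma-trend) and Trib3 -2.20 ± 0.20 on the log2 scale. Stc2 was at -1.33 ± 0.28 and Nupr1 at -0.85 ± 0.14.

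The remaining lower members had smaller differences. Mthfd2 (-0.68), Cth (-0.44) and Shmt2 (-0.30) are enzymes, Slc1a4 (-0.51) and Slc7a5 (-0.50) transporters, and the synthetase gene Cars (-0.34) and the transcription factor Ddit3 (-0.31) complete the list. Atf4 itself was -0.24 ± 0.13 and was not called (adjusted p = 0.189). Several of these calls lay close to the threshold and were lost with 1 library fewer, while their estimates kept their direction and much of their size. Over all settings tried, the log2 difference ran from 0.33 to 0.44 for Psph, -0.39 to -0.23 for Ddit3, 0.23 to 0.33 for Slc6a9, -0.78 to -0.58 for Mthfd2 and 0.19 to 0.26 for Iars. Psph was lost without Null control replicate 2 or without any 1 of the 6 treated libraries (adjusted p = 0.0626 to 0.137), and Ddit3 without Null control replicate 2, DKO control replicate 2 or 3, Null etoposide replicate 1 or 2, or any DKO etoposide library (0.0554 to 0.197). Slc6a9 (0.0754 to 0.116) and Mthfd2 (0.0518 to 0.0717) were lost without replicate 1 or 2 of treated Null or replicate 1 or 3 of treated DKO cells, and Iars (0.0604 to 0.0896) without replicate 1 or 2 of treated Null or replicate 2 or 3 of treated DKO cells. Cth was lost without Null etoposide replicate 1 (adjusted p = 0.0572) and Slc7a5 without DKO etoposide replicate 2 (adjusted p = 0.0622). The calls of Slc7a11, Eprs, Xpot, Trib3, Chac1, Stc2, Nupr1, Slc1a4, Cars and Shmt2 held with each library left out.

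**Figure D5:**
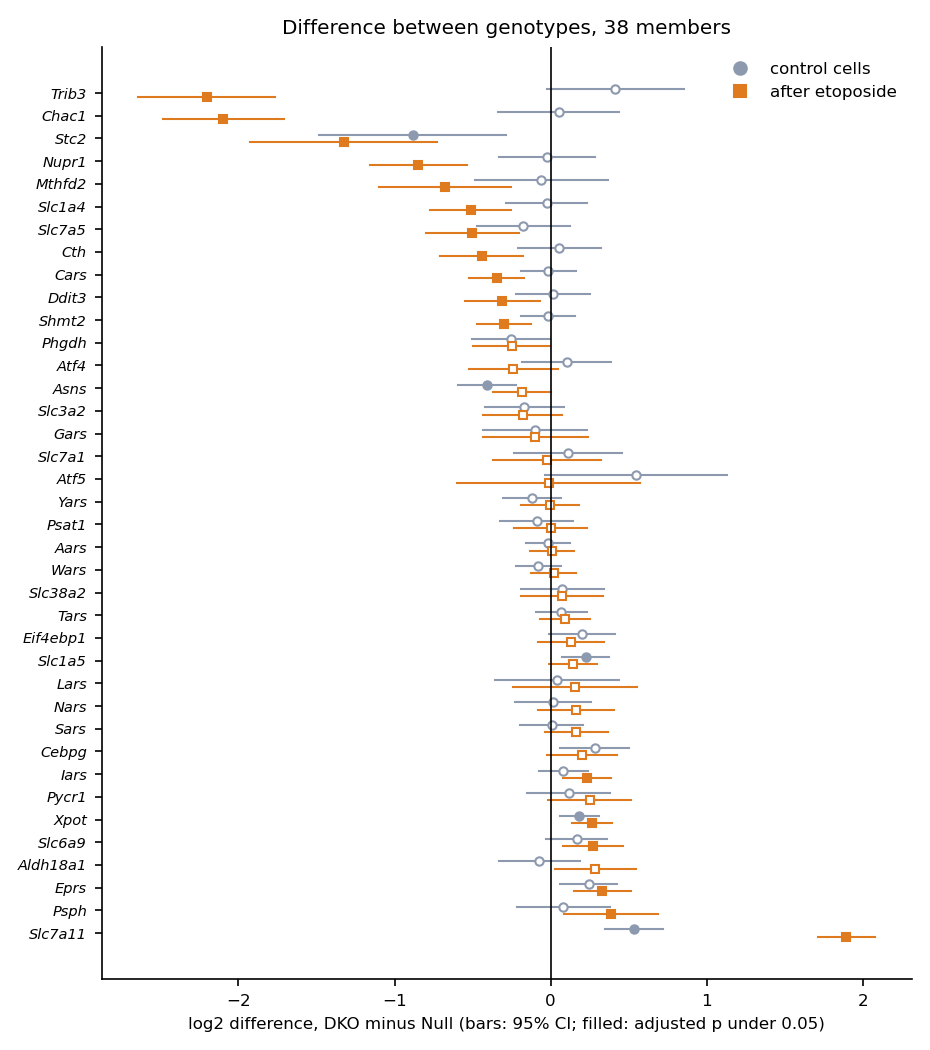
Log2 difference, DKO minus Null, for each of the 38 genes in control cells (grey circles) and after etoposide (orange squares). Bars are 95% confidence intervals from limma-trend and filled symbols passed an adjusted p of 0.05. After etoposide Slc7a11 stands alone at 1.90 and Trib3, Chac1 and Stc2 lie under -1.

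The control libraries of both lines and the treated DKO libraries put most members in one of 2 opposite orders. In Null control replicate 1, 13 members had their highest and in DKO control replicate 1 their lowest value of the 3 controls, among them Atf4, Atf5, Nupr1, Stc2, Shmt2, Aldh18a1, Slc7a1, Slc7a5 and Sars. For 17 members the order was the opposite, among them Chac1, Psat1, Phgdh, Mthfd2, Slc3a2, Gars, Lars, Nars and Cars. The other 8 members (Slc1a4, Slc1a5, Iars, Pycr1, Trib3, Asns, Slc7a11 and Xpot) were in neither order. Over all genes tested, 26.5% had the first order, 32.1% the second and 41.4% neither. Sars and Nars, both synthetases, thus stood at 592, 546 and 518 and at 448, 539 and 605 CPM across the same 3 Null controls. In treated DKO cells, replicate 2 was the lowest of 3 for 11 of the 13 members and the highest for 15 of the 17, and replicate 3 was the highest for 9 of the 13 and the lowest for 16 of the 17. In treated Null cells no replicate was the highest, or the lowest, for more than 6 of the 13 or 9 of the 17. The median coefficient of variation of the 38 genes was 9.02% in Null and 11% in DKO controls, and 3.16% and 7.29% after etoposide. Null control replicate 1 and DKO control replicate 3 had the lowest total counts of the 12 libraries, and their part in this pattern was not tested.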

How the data were processed

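RNA of 12 RAW264.7 libraries was sequenced. Per the labels, HISAT2 and featureCounts were used with mm10, while the study's methods name HTSeq for counting. The deposited values are whole counts per gene. Genes overlapping on opposite strands shared reads (median density 0.826 of the outer gene for 66 genes, 0.790 for 22 on the same strand), so counting did not use strand. Of the genes, 99.43% matched GENCODE M21 (GRCm38).

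Counts were TMM-scaled (edgeR 4.0.16), filtered with filterByExpr over 4 groups (18066 genes, 99.96% of counts) and fitted with limma-trend (limma 3.58.1, R 4.3.3, robust, prior count 3, all 12 libraries), with 5 contrasts, Benjamini-Hochberg adjustment over all genes tested and calls at 0.05. The scripts were tested on simulated data. Alternatives were edgeR, DESeq2 1.42.0, other scalings, filters and prior counts, a replicate block, fewer groups, a fold limit and omission of each library. Levels per kb used merged exon lengths. All 38 members are named, and of related lists at most 2 genes per direction with the largest change among those called. Genes marked as named after their values were seen are exceptions to this rule. Members and lists were chosen with earlier results of these data known. The deposited counts run from 29837255 to 61809316 per library, and only replicate spread enters the tests.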

Additional observations from a re-analysis of the deposited data

Results flagged for a closer look

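For 4 members the response to etoposide differed between Null and DKO cells by a test of the difference itself, 1 higher and 3 lower of 38, a share close to the 3.07% and 6.39% of all genes tested. The interaction was 1.36 for Slc7a11, -2.62 for Trib3, -2.15 for Chac1 and -0.82 for Nupr1, on the log2 scale. Over all settings tried, Slc7a11 ranged from 1.29 to 1.45, Trib3 from -2.79 to -2.35 and Chac1 from -2.38 to -1.95, each called every time. The estimate of Nupr1 ranged from -0.95 to -0.72 and lost its call in 10 of the settings. The cause of these differences was not tested.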

How the results depend on the processing

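The counts of 38 members lower with etoposide, and their directions, held in both lines under every alternative, except that 34 and 31 reached a log2 change of -1 or lower. In control cells, members called higher in DKO numbered 3 in the main analysis, 5 with DESeq2, and 1 with library size alone, without a filter, with the replicate block and with only the compared groups fitted. Those called lower numbered 2, then 1 with the replicate block and 0 with only the compared groups, and none reached an absolute log2 difference of 1 (0 higher, 0 lower). After etoposide, 1 member was higher and 3 were lower at that size. Leaving out 1 library gave 1 to 3 higher and 1 to 3 lower in control cells, 3 to 7 and 8 to 12 after etoposide (3 higher without replicate 1 or 2 of the treated Null group or replicate 3 of the treated DKO group), and 1 and 2 to 3 for the interaction. With library size alone, the calls over all genes in control cells went from 1974 higher and 1516 lower to 1579 and 2057. Without a filter, 32688 genes were tested. With only the compared groups, 6 libraries remained. Otherwise the cause was not tested. Same-numbered libraries did not deviate together (correlations -0.888 to 0.855, median -0.0116, 18 pairs), so the numbers do not pair them. The replicate block gave 38 lower in each line and ended the calls of Nupr1 in the interaction and of Ddit3, Psph and Slc6a9 after etoposide. No result reversed. Low counts limit Trib3 and Chac1 in treated DKO cells.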

Other observations

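Genes that neighbour the ATF4 program moved in other ways. Beside the etoposide calls of the lists below, 20.9% of all genes tested were called higher and 18.7% lower in Null cells. In DKO cells these shares were 20.2% and 19.1%. Of 16 genes for endoplasmic reticulum chaperones and degradation, the other branches of the unfolded protein response, 1 was called higher and 8 lower with etoposide in Null cells and 3 higher and 5 lower in DKO cells, with medians of -0.23 and 0.07 on the log2 scale. After etoposide, 10 of the 16 were called higher in DKO than in Null cells and 0 lower (limma-trend), where 15.9% of all genes tested were called higher. Already in control cells, 3 were called higher and 1 lower in DKO cells, where 10.9% and 8.39% of all genes were. The interaction was called higher for 3 and lower for 0, where 3.07% and 6.39% of all genes were. Xbp1, a transcription factor of this response, stood at 119, 145 and 154 CPM in Null controls, 73.5, 77.7 and 73.5 CPM in Null cells after etoposide, 140.2, 127 and 115 CPM in DKO controls and 143, 152 and 138 CPM in DKO cells after etoposide. Its fall in Null cells had no counterpart in DKO cells, and the interaction was 1.07 ± 0.14 (adjusted p = 3.28e-04). Calr, a calcium-binding chaperone, rose in both lines, with log2 changes of 0.44 ± 0.06 in Null and 0.93 ± 0.06 in DKO cells, and Atf6 fell in both, with -1.33 ± 0.10 in Null and -1.27 ± 0.10 in DKO cells.

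Of 23 further enzymes of amino acid metabolism, 7 were called higher and 6 lower in Null cells, and 5 higher and 7 lower in DKO cells, with medians of 0.06 in each line. Cbs, which makes cystathionine for Cth, rose by 2.98 in Null and 2.35 in DKO cells, against log2 changes of -1.86 and -2.36 for Cth. The Cbs controls were low, at 0.88, 0.69 and 0.93 CPM in Null and 2.7, 2.8 and 2.3 CPM in DKO cells. Ass1, of arginine synthesis, rose by 1.95 and 2.34, from 2.3, 2.6 and 2.5 CPM in Null and 1.7, 1.4 and 0.98 CPM in DKO controls. Shmt1, the cytosolic counterpart of Shmt2, had log2 changes of -0.55 ± 0.11 in Null and -0.93 ± 0.11 in DKO cells, and Gclc, of glutathione synthesis, had -0.52 ± 0.09 in Null and -0.64 ± 0.09 in DKO cells. Of 14 tested transporters out of 18 listed, 5 were called higher and 5 lower in Null cells, and 4 higher and 6 lower in DKO cells. Slc1a3, a glutamate transporter of the family of Slc1a4, stood at 0, 0 and 0 CPM in Null controls, 0.521, 0.303 and 0.289 CPM in Null cells after etoposide, 0, 0.018 and 0 CPM in DKO controls and 0.0909, 0.14 and 0.0658 CPM in DKO cells after etoposide, and no fold is given for so few counts. Slc7a8 rose by 2.15 in Null and 1.40 in DKO cells, from 2.6, 1.9 and 1.8 CPM in Null and 0.75, 1.2 and 1.1 CPM in DKO controls. Slc38a7 had log2 changes of -1.24 ± 0.12 in Null and -0.77 ± 0.12 in DKO cells.

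Jdp2, a listed ATF4 target named after its values were seen, stood at 57.8, 59.6 and 63.9 CPM in Null controls, 27.5, 27.2 and 29.0 CPM in Null cells after etoposide, 99, 84.0 and 85.7 CPM in DKO controls and 94.1, 104 and 89.3 CPM in DKO cells after etoposide. Its interaction was 1.21 ± 0.12 (adjusted p = 2.52e-05), in the same direction as that of Slc7a11.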
